A study of Mus musculus with 4 samples.

Results

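The neuregulins and the receptors of the ErbB family form a ligand and receptor system, and the transcripts of its 8 members were examined in *Dnmt1* WT and *Dnmt1* KO cells of the embryonic preoptic area (POA). The members were chosen by gene name, with earlier results of these data known. They are the ligand genes *Nrg1*, *Nrg2*, *Nrg3* and *Nrg4* and the receptor genes *Egfr*, *Erbb2*, *Erbb3* and *Erbb4*, which are 8 of the 55573 Ensembl gene identifiers listed with a count, zeros included. All 8 had counts in each library and passed the filter on low counts. The RNA came from tdTomato-positive cells sorted by fluorescence-activated cell sorting (FACS) at embryonic day (E) 16, with 2 libraries per genotype. Both genotypes carried *Hmx3-Cre* and the *tdTomato* reporter on a C57BL/6J background, and they differed in the *Dnmt1* allele, which was wild type in WT and *Dnmt1 loxP2* in KO. As *Hmx3* drives the Cre recombinase, the deletion reaches cells that express or have expressed *Hmx3*, and the sort collects cells with the reporter switched on. Cells of 12 WT and 6 KO embryos were pooled. The labels name the basal telencephalon as the region and speak of biological replicates, whereas the paper names the POA and speaks of technical duplicates of pooled samples. P-values therefore measure the spread between these libraries, which may be technical.

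Neuregulins are growth factors with an EGF-like domain, and most of them are made as membrane-bound precursors that proteases cut. ERBB3 and ERBB4 bind neuregulins, EGFR binds EGF, TGF-alpha and related ligands, and ERBB2 has no known ligand of its own and acts as the partner in receptor pairs. ERBB3 has little kinase activity and depends on such a partner. Bound receptors signal through the RAS and ERK cascade and through PI3K and AKT. In the developing forebrain, ERBB4 is known as the neuregulin receptor of migrating interneurons, EGFR as a receptor of late progenitors and glial precursors, and ERBB3 as a receptor of the oligodendrocyte and Schwann cell lineages.

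The libraries held between 8075102 and 9995968 counts. At this depth 3 counts correspond to 0.294 to 0.372 CPM (the count of a gene relative to the TMM-scaled library size). The share of mitochondrial rRNA was 8.66% in WT 1 and at most 2.32% in the others. *Dnmt1* itself gave 3103 and 4557 reads in the WT libraries against 2383 and 2552 in the KO libraries, a log2 fold change of -0.56 that did not pass the threshold (standard error 0.14, edgeR adjusted p = 0.0511), although each KO library was below each WT library. *Hmx3*, which drives the Cre, had a log2 fold change of -0.03 (95% interval -0.43 to 0.38). Over the 16832 genes tested, edgeR's quasi-likelihood test with Benjamini-Hochberg adjustment called 1329 genes at an adjusted p under 0.05, 1233 higher and 96 lower in KO, and the median log2 fold change of all genes was -0.03. With a correction for the GC content and length of genes, 1999 were higher and 988 lower, or 66.9% higher in place of 92.8%.

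Of the 8 members, 3 rose in KO and none fell by this test, where 7.33% of all genes were called higher and 0.57% were called lower. All 3 were receptors. The libraries of the genotypes did not overlap in 5 members, 4 of them higher and 1 lower in KO, while 53.5% of all genes did not overlap. *Egfr* rose 8.27-fold, *Erbb2* 4.49-fold and *Erbb3* 1.54-fold, while *Erbb4*, the most abundant receptor in both genotypes, and the 4 neuregulins were not called. The median log2 fold change was 1.39 over the 4 receptors and -0.12 over the 4 neuregulins. Since RNA was measured in bulk, a change in the number of cells of a type and a change in RNA per cell cannot be told apart.

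**Figure D1:**
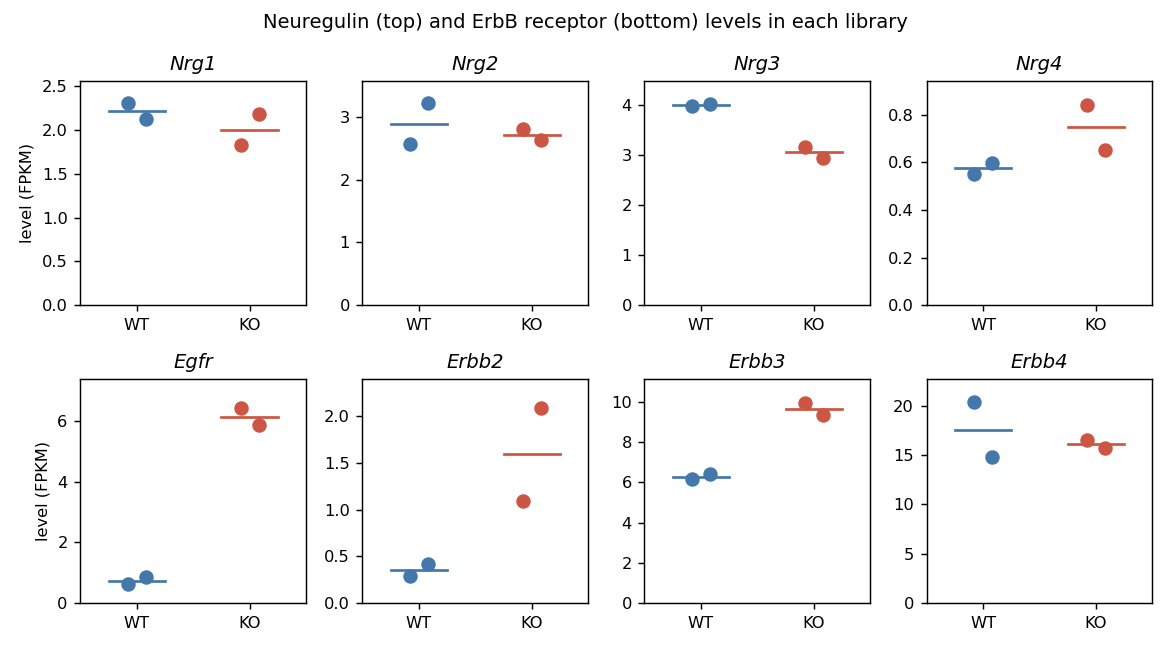
Level of each member in each library in FPKM (CPM per kilobase of merged exons), with points for libraries and lines for the genotype means (n = 2), and with an own vertical axis from 0 for each gene. *Egfr* stood at 0.636 and 0.839 FPKM in WT and at 6.43 and 5.86 in KO, and the KO points of *Erbb2* and *Erbb3* also lie above both WT points, whereas those of *Erbb4* lie between the WT points.

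*Egfr*, which encodes the receptor for EGF and TGF-alpha, covers bases 16752203 to 16918158 of chromosome 11 (GRCm38, plus strand). It reached 58 and 97 reads in WT and, in KO, 613 and 603. Both KO libraries were several times higher than either WT library, and the libraries of a genotype were close to each other. The level was 8.35 ± 1.63 CPM in WT against 69.6 ± 4.57 CPM in KO (SD, n = 2 each), a log2 fold change of 3.05 (standard error 0.20, 95% interval 2.59 to 3.51, edgeR adjusted p = 4.96e-05). No other gene of the GENCODE M21 annotation overlaps the exons of *Egfr*.

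*Erbb2*, the gene of the partner receptor without a ligand, lies on the same chromosome from 98412470 to 98437716 on the plus strand. It had the lowest level of the 4 receptors, with 12 and 22 reads in WT against 48 and 99 in KO. The genotypes did not overlap, but the KO libraries were far apart, at 5.71 and 10.9 CPM. The level was 1.82 ± 0.471 CPM in WT against 8.30 ± 3.67 CPM in KO (SD, n = 2 each), and the log2 fold change was 2.17 (standard error 0.46, 95% interval 1.12 to 3.22, edgeR adjusted p = 0.0243). Without KO 2 the log2 fold change was 1.63 and was not called (edgeR adjusted p = 0.278), and with limma-voom the adjusted p was 0.0522.

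*Erbb3*, the gene of the neuregulin receptor with a weak kinase, lies on chromosome 10 from 128567523 to 128589652 on the minus strand. It was counted at 299 and 394 reads in WT against 504 and 512 in KO. In CPM, which accounts for library size, the WT libraries stood at 37.1 and 38.6 and the KO libraries at 59.9 and 56.4, so that the spread within each genotype was small beside the step between them. The log2 fold change was 0.62 (standard error 0.15, 95% interval 0.27 to 0.96, edgeR adjusted p = 0.0436). This call is close to the threshold. The adjusted p of *Erbb3* was 0.0566 with DESeq2 and 0.0506 with limma-voom, and it was 0.382 without KO 1 and 0.307 without KO 2, with log2 fold changes between 0.58 and 0.67 in the leave-one-out fits.

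*Erbb4*, the gene of the interneuron neuregulin receptor, spans 1075.9 kb of chromosome 1 from 68032186 to 69108059 on the minus strand. It gave 2032 and 1866 reads in the WT libraries against 1719 and 1764 in the KO libraries, the highest counts of all members. The level was 218 ± 49.1 CPM in WT against 199 ± 7.14 CPM in KO (SD, n = 2 each), and both KO libraries lay between the WT libraries. The log2 fold change was -0.13 (95% interval -0.53 to 0.28, edgeR adjusted p = 0.719). In this fit the interval ended below the log2 fold changes estimated for *Egfr*, *Erbb2* and *Erbb3*. It overlapped the interval of *Erbb3*, which was 0.27 to 0.96. The spread came from the WT libraries. Without WT 1 the log2 fold change of *Erbb4* was 0.12 (edgeR adjusted p = 0.573), and without WT 2 it was -0.35 and was called (edgeR adjusted p = 0.0485). With the correction for GC content and gene length it was 0.21 (edgeR adjusted p = 0.157).

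**Figure D2:**
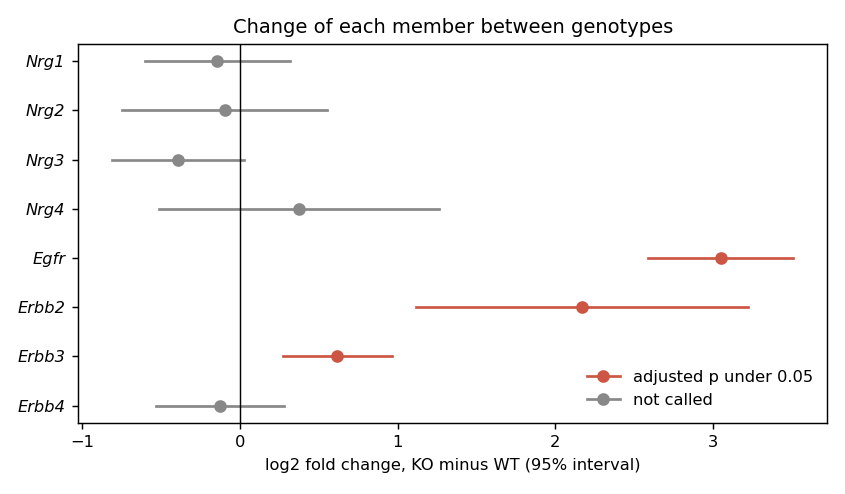
Log2 fold change of each member, KO minus WT, with its 95% interval from the edgeR fit over all genes (n = 2 libraries per genotype). Points in red passed an adjusted p of 0.05. The intervals of *Egfr*, *Erbb2* and *Erbb3* lie above 0, and those of *Erbb4* and the 4 neuregulins include 0.

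As the receptors changed unequally, their make-up differed between the genotypes. Per length of merged exons, *Erbb4* made up 74.2% and 65.9% of the summed receptor FPKM in the WT libraries and 48.6% and 47.6% in the KO libraries. *Egfr* made up 2.31% and 3.74% in WT and 18.9% and 17.7% in KO. The genotypes did not overlap in either share, and the *Egfr* share of KO was well outside the spread of WT. *Erbb3* held 22.4% and 28.6% in WT and 29.3% and 28.4% in KO, which overlapped, and *Erbb2* held 1.04% and 1.84% in WT and 3.22% and 6.33% in KO. The summed receptor level was 27.5 and 22.5 FPKM in the WT libraries and 34.0 and 33.1 FPKM in the KO libraries. With 2 libraries per genotype, an exact two-sided permutation test cannot go below p = 0.333, so the shares are given as a description.

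**Figure D3:**
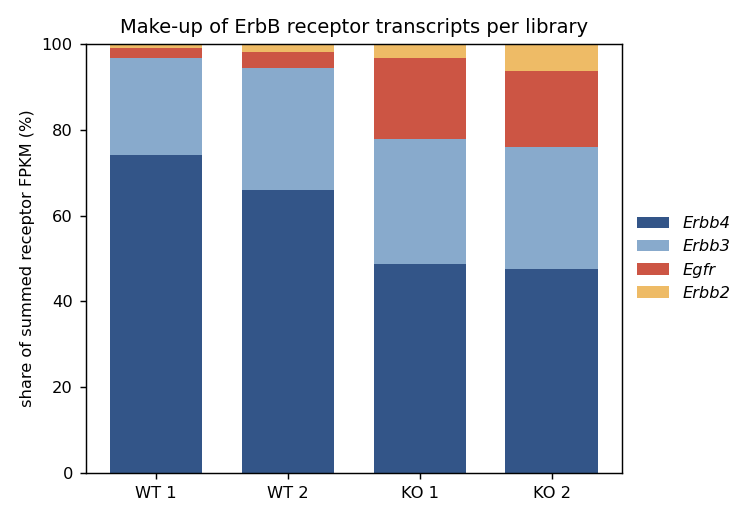
Share of each receptor in the summed FPKM of the 4 receptors, as a percentage, with 1 bar per library. *Erbb4* takes over 65% of both WT bars and under 49% of both KO bars, and the *Egfr* segment grows from at most 3.74% in WT to at least 17.7% in KO.

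The ratio of 2 genes within a library does not depend on how the libraries are scaled. The log2 ratio of *Egfr* to *Erbb4* in FPKM was -5.01 and -4.14 in WT and -1.36 and -1.42 in KO, a difference of 3.18. For *Erbb2* over *Erbb4* the ratio was -6.16 and -5.16 in WT and -3.92 and -2.91 in KO, and for *Erbb3* over *Erbb4* it was -1.73 and -1.21 in WT and -0.73 and -0.75 in KO. In each of these ratios both KO libraries lay above both WT libraries, which 28.3% of single genes also did in CPM. The order of the receptors per length, *Erbb4* over *Erbb3* over *Egfr* over *Erbb2*, was the same in both genotypes, and the library ranges of neighbours in this order did not overlap.

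DNMT1 maintains methylation at CpG sites, and the 250 bases before the start site were therefore read from a table of RefSeq promoters (GRCm38.p6) for *Nrg3*, *Nrg4*, *Egfr*, *Erbb2* and *Erbb4*. The sequences of *Egfr* and *Erbb2*, which rose, and of *Erbb4*, which was not called, are shown from 5′ to 3′ on the strand of the gene, with each CpG in capitals. They lie at chr11:16751953-16752202 (plus strand), chr11:98412234-98412483 (plus strand) and chr1:69108060-69108309 (minus strand).
Egfr: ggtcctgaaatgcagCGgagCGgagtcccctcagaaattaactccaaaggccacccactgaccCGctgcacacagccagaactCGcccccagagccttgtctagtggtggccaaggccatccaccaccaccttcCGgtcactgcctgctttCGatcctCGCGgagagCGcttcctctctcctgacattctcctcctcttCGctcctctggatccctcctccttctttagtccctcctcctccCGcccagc
Erbb2: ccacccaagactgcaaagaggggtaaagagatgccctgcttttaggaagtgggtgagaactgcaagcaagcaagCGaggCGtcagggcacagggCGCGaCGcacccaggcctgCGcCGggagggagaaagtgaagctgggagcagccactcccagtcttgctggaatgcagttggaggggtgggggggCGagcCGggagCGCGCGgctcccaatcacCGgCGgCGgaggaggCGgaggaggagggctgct
Erbb4: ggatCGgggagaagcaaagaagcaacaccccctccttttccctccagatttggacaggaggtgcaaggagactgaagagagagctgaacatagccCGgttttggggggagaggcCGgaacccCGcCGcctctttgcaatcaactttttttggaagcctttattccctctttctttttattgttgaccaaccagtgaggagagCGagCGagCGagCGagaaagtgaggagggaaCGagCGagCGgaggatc
The window of *Egfr* held 11 CpG sites, that of *Erbb2* 16 and that of *Erbb4* 12, against a median of 6 over the 32841 promoters of the table. The windows of *Nrg3* and *Nrg4* held 27 and 10. The window of *Nrg4* (chr9:55283626-55283875, minus strand) lies within the GENCODE span of the gene, so it precedes an internal start. The table held no window for *Erbb3*, *Nrg1* or *Nrg2*. At least as many sites as in *Egfr*, *Erbb2* and *Erbb4* were found in 35.6%, 25.4% and 33.5% of all promoters. The GC box GGGCGG was searched on both strands and was found 1 time in *Egfr* and in none of the other windows, while 32.8% of all promoters held it. The CCAAT box was found 1 time in *Erbb2* (33.9% of all promoters), and TATAAA in none of the 5 windows (12.4% of all promoters). Such matches describe the letters of these windows, and methylation was not analysed here.

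None of the 4 neuregulin genes was called by edgeR, DESeq2 or limma-voom, and 0 had an unadjusted edgeR p under 0.05. *Nrg3*, a ligand of ERBB4 that is mostly neuronal, covers bases 38368952 to 39473088 of chromosome 14 and had the largest downward value. It had 219 and 280 counts in WT and 182 in each KO library, or 27.3 ± 0.176 CPM in WT against 20.8 ± 1.13 CPM in KO (SD, n = 2 each). Each KO library was below each WT library, as in 25.2% of all genes. The log2 fold change was -0.39 (95% interval -0.81 to 0.03, edgeR adjusted p = 0.247).

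*Nrg1*, the founding member of the family, spans 1069.5 kb of chromosome 8 from 31814551 to 32884029. It reached 192 and 225 reads in WT and, in KO, 159 and 205, and the ranges in CPM overlapped. Its log2 fold change was -0.14 (95% interval -0.60 to 0.32, edgeR adjusted p = 0.716). *Nrg2*, which covers bases 36017652 to 36197380 of chromosome 18, was counted at 65 and 103 reads in WT against 74 and 75 in KO, and its log2 fold change was -0.09 (95% interval -0.74 to 0.55, edgeR adjusted p = 0.881). *Nrg1* and *Nrg2* are ligands of both ERBB3 and ERBB4. In neither gene did the genotypes part, and the signs were not stable. The log2 fold change of *Nrg1* was 0.071 with the correction for GC content and gene length, and that of *Nrg2* was 0.007 with library size as the only scaling and 0.068 without WT 2.

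*Nrg4*, a ligand of ERBB4 known mainly from fat tissue, had the fewest counts among the ligands, with 27 and 37 in WT and 43 and 36 in KO. It covers bases 55220222 to 55326844 of chromosome 9. The KO libraries lay above the WT libraries in CPM (3.49 ± 0.194 in WT and 4.54 ± 0.811 in KO, SD, n = 2), but the log2 fold change of 0.37 had a wide 95% interval of -0.51 to 1.26 (edgeR adjusted p = 0.605). The gene *Fbxo22* on the opposite strand overlaps 6.06% of the exonic bases of *Nrg4* and gave 363 and 516 reads in the WT libraries against 310 and 346 in the KO libraries. Since the strand setting of the counting is not given in the sources used here, reads of *Nrg4* and *Fbxo22* cannot be told apart in the overlap. The lincRNA *Gm26578*, which overlaps 4.66% of the exonic bases of *Nrg1*, had at most 10 counts.

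Per length, *Nrg3* was the most abundant neuregulin, with 41.4 ± 1.40% (SD, n = 2) of the summed neuregulin FPKM in WT and 35.9 ± 1.23% (SD, n = 2) in KO. *Nrg4* was the least abundant, with 5.92% in WT and 8.75% in KO on average. The order of *Nrg1* and *Nrg2* depended on the length used. *Nrg2* was above *Nrg1* per merged exons (29.8% and 22.9% in WT), and *Nrg1* was above *Nrg2* per longest transcript (27.0% and 18.9% in WT), as the merged exons of *Nrg1* reach 10351 bases and its longest transcript 5415. The summed neuregulin level was 9.69 ± 0.391 FPKM (SD, n = 2) in WT and 8.53 ± 0.169 FPKM (SD, n = 2) in KO.

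Over all 8 members, the WT order per merged exons was *Erbb4*, *Erbb3*, *Nrg3*, *Nrg2*, *Nrg1*, *Egfr*, *Nrg4* and *Erbb2*, from 17.6 FPKM at the top to 0.350 FPKM at the bottom, and no neighbours in it overlapped. In KO the order was *Erbb4*, *Erbb3*, *Egfr*, *Nrg3*, *Nrg2*, *Nrg1*, *Erbb2* and *Nrg4*, from 16.1 to 0.747 FPKM, and among neighbours *Nrg1* and *Erbb2* overlapped. *Egfr* thus stood below *Nrg1*, *Nrg2* and *Nrg3* in WT and above every neuregulin in KO, which also held per longest transcript. The place of *Erbb3* against *Nrg3* in WT turned with the length used, with 6.29 and 4.01 FPKM per merged exons and 6.29 and 6.81 FPKM per longest transcript. The place of *Nrg4* turned as well. In WT, *Egfr* and *Nrg4* stood at 0.737 and 0.574 FPKM per merged exons and at 0.818 and 1.665 FPKM per longest transcript. In KO, *Erbb2* and *Nrg4* stood at 1.59 and 0.747 FPKM per merged exons. Per longest transcript they stood at 1.66 and 2.17 FPKM, with overlapping library ranges.

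The other genes of ErbB signalling were read from 7 lists with 78 genes, of which 72 were tested. In KO 6 of them rose and 0 fell by edgeR, or 8.33% of those tested against 7.9% of all genes called in either direction, so that the lists as a whole were near the background. The split depended on the fit, with 9 higher and 7 lower with the correction for GC content and gene length, and 9 higher and 3 lower with the replicate block. Their median log2 fold change was -0.04. At an unadjusted edgeR p under 0.05, 12 were higher and 6 lower. No share of all genes is given at an unadjusted threshold, so such counts stand without a background. The 6 genes that rose are described by role.

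**Figure D4:**
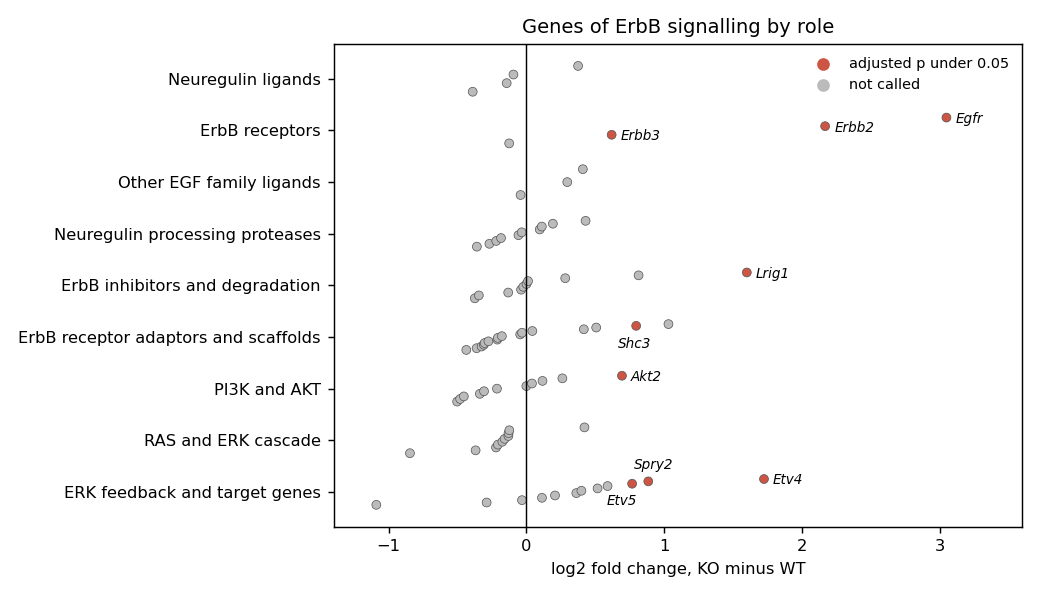
Log2 fold change, KO minus WT, of each tested member and of each tested gene of the 7 signalling lists, grouped by role, with genes that passed an edgeR adjusted p of 0.05 in red and named. Red points are 3 receptors and 6 signalling genes, all of them right of 0, and the ligand and protease lists hold none.

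Among the 7 other ligands of the EGF family, 0 were called by edgeR, DESeq2 or limma-voom, and 0 had an unadjusted p under 0.05. *Tgfa*, which encodes the EGFR ligand TGF-alpha, was the most abundant of them per length, with 467 and 701 reads in WT against 507 and 570 in KO (log2 fold change -0.04, 95% interval -0.40 to 0.31, edgeR adjusted p = 0.904). The ligand genes *Areg*, *Ereg*, *Btc* and *Epgn* had at most 3 counts in any library and were not tested. The EGFR ligand genes with enough counts to be tested were thus not called, whereas *Egfr* was. The 11 genes for proteases that process neuregulins, of which 10 were tested, gave 0 calls by each of the 3 tools and 0 at an unadjusted p under 0.05. *Bace1*, the beta-secretase that cuts neuregulin precursors, was counted at 1113 and 1316 reads in WT against 1003 and 1051 in KO (log2 fold change -0.18, edgeR adjusted p = 0.472). The gene *Rnf214* on the opposite strand overlaps 15.4% of its exonic bases.

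Of the 10 inhibitors and degradation factors of ErbB receptors, *Lrig1* rose. It encodes a membrane protein that lowers the amount of ErbB receptors, and it gave 134 and 295 reads in the WT libraries against 556 and 661 in the KO libraries. Both KO libraries were above both WT libraries, and WT 1 was the lowest. On the log2 scale *Lrig1* rose by 1.60 (standard error 0.25, edgeR adjusted p = 0.00545). *Rnf41*, the ubiquitin ligase of ERBB3, reached 791 and 1228 reads in WT and, in KO, 678 and 799 and was not called (log2 fold change -0.37, edgeR adjusted p = 0.216). Without WT 1 the log2 fold change of *Rnf41* was -0.52 (edgeR adjusted p = 0.00592), and with the correction for GC content and gene length it was -0.46 (edgeR adjusted p = 0.0172).

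Of the 17 adaptors and scaffolds, *Shc3*, a neuronal adaptor that links receptors to RAS, rose from 395 and 551 counts to 749 and 817 (log2 fold change 0.80, edgeR adjusted p = 0.0118). *Plcg1*, the most abundant of the others per length, was at -0.05 on the log2 scale (edgeR adjusted p = 0.879). Of the 11 PI3K and AKT genes, *Akt2*, which encodes an AKT kinase, rose from 320 and 524 counts to 621 and 669 (log2 fold change 0.69, edgeR adjusted p = 0.0449), and *Akt1* was not called (-0.21, edgeR adjusted p = 0.464). *Akt2* and *Shc3* had the KO libraries close together and above both WT libraries. The 10 genes of the RAS and ERK cascade gave 0 calls by edgeR and limma-voom, 1 by DESeq2, and 1 at an unadjusted edgeR p under 0.05.

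The ERK feedback and target genes gave 3 calls among 12 genes, all higher in KO. *Etv4*, an ETS transcription factor induced by receptor tyrosine kinase signalling, was counted at 117 and 154 reads in WT against 392 and 466 in KO. On the log2 scale *Etv4* rose by 1.72 (standard error 0.17, edgeR adjusted p = 0.000564). *Etv5*, a close relative, rose from 192 and 237 counts to 326 and 375 (log2 fold change 0.77, edgeR adjusted p = 0.0281). *Spry2*, a feedback inhibitor of this signalling, rose from 201 and 309 counts to 421 and 473 (log2 fold change 0.88, edgeR adjusted p = 0.0161). In these genes the genotypes did not overlap. *Dusp4*, an ERK phosphatase with the highest level of the list per length, was not called, with 1360 and 1931 reads in WT against 1152 and 1417 in KO (log2 fold change -0.29, edgeR adjusted p = 0.288). The FGF receptor gene *Fgfr3*, which is in the astrocyte list and whose product also signals to ERK, gave 202 and 200 reads in the WT libraries against 3137 and 3348 in the KO libraries. Its part in the rise of these genes was not tested. When a KO library was left out, *Lrig1* and *Etv4* were called and the other 4 were not, with adjusted p-values from 0.0515 to 0.31.

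The members are also expressed by cells other than interneurons, and markers of such cells moved with the genotype. All 12 inhibitory interneuron markers had counts in each library, and their summed level was 1567 to 1680 CPM in WT and 1326 to 1448 CPM in KO. None of these 12 was called by edgeR, DESeq2 or limma-voom, while 3 had an unadjusted edgeR p under 0.05, 10 had a log2 fold change below 0, and 6 had each KO library below each WT library. With the correction for GC content and gene length 3 interneuron markers were lower, and without WT 1 and without WT 2 it was 1 and 2. Of 10 general neuron markers, 3 fell (*Elavl4* by 0.81, *Syt1* by 0.73 and *Stmn2* by 0.57 on the log2 scale). An unadjusted edgeR p under 0.05 was found for 8 of the 10, and 9 had each KO library below each WT library (median log2 fold change -0.56), where 25.2% of all genes did. The number of general neuron markers called lower was 1 with KO 1 or KO 2 left out, 7 without WT 1 and 8 without WT 2. The 7 markers of oligodendrocyte precursors were abundant in both genotypes, with summed levels of 1547 to 1616 CPM in WT and 1946 to 2044 CPM in KO, so that the sorted WT cells already carried transcripts of this lineage. Of these 7, *Olig2* rose (log2 fold change 0.63, edgeR adjusted p = 0.0298), and the median log2 fold change of the precursor list was 0.44. With KO 1 or KO 2 left out 0 precursor markers were called, and without WT 1 and without WT 2 it was 3 and 5.

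All 10 astrocyte markers rose, and their summed level was 186 to 207 CPM in WT and 3234 to 3388 CPM in KO. *Gfap* was at 0 in both WT libraries and at 149 and 198 counts in KO, and *Gjb6* reached 2 and 1 reads in WT and, in KO, 974 and 1022. Of 10 markers of mature oligodendrocytes 9 rose, from a sum of 131 to 156 CPM to a sum of 612 to 640 CPM, with *Opalin* at 0 in both WT libraries. Of 8 mural cell markers 7 rose (305 to 324 CPM in WT and 704 to 759 CPM in KO), with *Acta2* at 0 in both WT libraries. *Cspg4*, which is in the mural and in the precursor list and was not called, made up most of the WT mural sum, with 252 and 263 CPM in WT and 320 and 379 CPM in KO. Of 10 radial glia markers 3 rose, *Slc1a3*, *Hopx* and *Hes1*, and the sum was 1478 to 1619 CPM in WT and 2408 to 2557 CPM in KO. The number of radial glia markers called higher was 2 without KO 1, 1 without KO 2, 7 without WT 1 and 8 without WT 2, and 6 with the correction for GC content and gene length, which also called 1 lower. *Slc1a3*, a glutamate transporter of radial glia and astrocytes, had a log2 fold change of 2.95, and the median was 0.66 over the radial glia list and 4.29 over the astrocyte list. The part of these cells in the rise of *Egfr*, *Erbb2*, *Erbb3*, *Lrig1* and the ERK target genes was not tested.

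**Figure D5:**
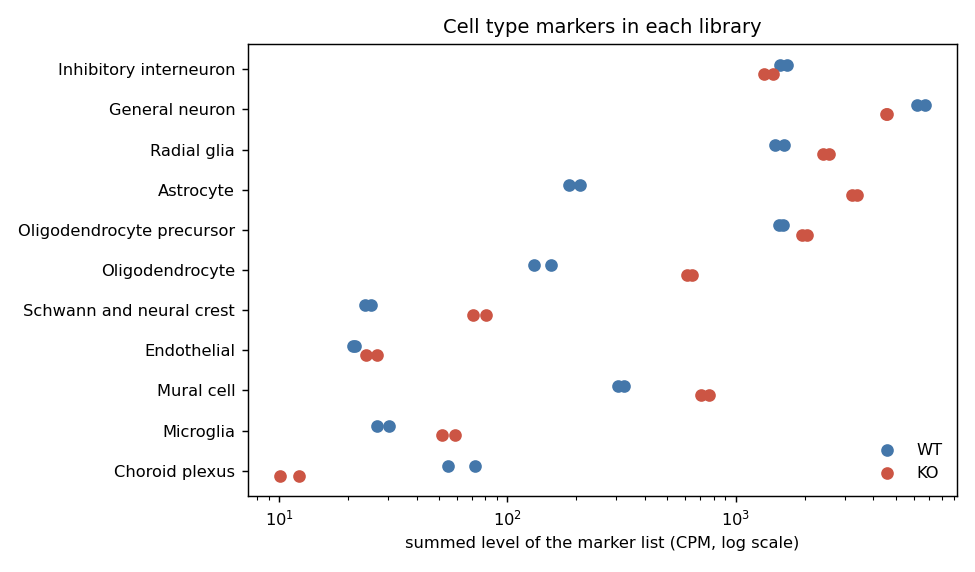
Summed level of each cell type marker list in CPM on a log scale, with 1 point per library. The interneuron, general neuron and choroid plexus sums lie lower in both KO libraries than in both WT libraries, and the sums of the other lists lie higher.

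Of 6 Schwann cell and neural crest markers 3 were tested and 2 rose, *Cdh19* and *Pmp22*, with sums of 23.7 to 25.3 CPM in WT and 70.4 to 80.8 CPM in KO, while *Foxd3*, a marker of neural crest cells, had 0 and 6 counts in WT and 0 in both KO libraries. Of 8 endothelial markers 6 were tested and 0 were called by the 3 tools (1 with the correction for GC content and gene length and 1 without WT 2), with 3 at an unadjusted edgeR p under 0.05, of which *Cldn5* (-1.46) and *Kdr* (-0.84) had log2 fold changes below 0 and *Flt1* (1.11) above 0, and sums of 21.1 to 21.6 CPM in WT and 24.1 to 26.9 CPM in KO. Of 8 microglia markers 6 were tested and *Csf1r* rose (edgeR adjusted p = 0.0474), while DESeq2 called 2 and limma-voom 0, and 2 and 4 were called without WT 1 and without WT 2, with sums of 26.9 to 30.4 CPM in WT and 51.5 to 58.8 CPM in KO. Of 7 choroid plexus markers 5 were tested and *Ttr* fell (2 markers with WT 1 or WT 2 left out), from 329 and 564 counts to 8 and 10, with sums of 54.7 to 72.2 CPM in WT and 10.1 to 12.2 CPM in KO.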

How the data were processed

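The authors deposited raw counts of reads on Ensembl genes for 2 *Dnmt1* WT and 2 *Dnmt1* KO libraries, without normalization. The submitters' processing notes name STAR 2.5.2a, featureCounts 1.5.0-p1 and CASAVA 1.8.2 with mm10 and GRCm38, while the annotation release and the strand setting are not given in the sources used here. Genotype and replicate were taken from the sample titles. Of 55573 gene identifiers, 55480 were matched to GENCODE M21 (GRCm38), which supplied symbols, positions and lengths, and promoter sequences came from RefSeq (GRCm38.p6).

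The 16832 genes left by edgeR's filter on low counts were normalized with TMM and compared in R 4.3.3 with the quasi-likelihood test of edgeR 4.0.16 (limma 3.58.1), with genotype alone in the model. Benjamini-Hochberg adjustment ran over all genes tested, and an adjusted p under 0.05 was a call. FPKM is CPM per kilobase of merged exons. Standard errors were derived from the test statistic. The members, lists and tests were chosen with earlier results of these data known. Named are all members, *Dnmt1*, *Hmx3*, the called genes of each signalling list with the most abundant gene not called, and up to 2 called genes per marker list, while other genes were chosen after their values were seen. Genes were not ranked by likeness of pattern, as 4 libraries in 2 groups do not separate them. Other genes of the lists enter the counts and are not named here, also where this rule would name them.

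Depth was 8075102 to 9995968 counts per library, and floors cover counting error only. The libraries of a genotype differed beyond sampling noise (chi-square over its degrees of freedom was 57.2 in WT and 4.28 in KO), and each was counted as a sample. Alternatives were DESeq2 1.42.0, limma-voom, other scalings and filters, a block for the replicate number, a correction per library for the GC content and length of genes, and each library left out. On simulated counts with a log2 change of 2, the edgeR test recovered 98.4% of the changed genes in a table of 16584 genes, with 1.59% false calls. The simulation gave all genes and libraries the same spread and no trend with GC content or gene length. It therefore gives no error rate for these libraries or for smaller changes.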

Additional observations from a re-analysis of the deposited data

How the results depend on the processing

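*Egfr* was called under each of the 10 alternative fits with all libraries (log2 fold changes from 3.04 to 3.20, edgeR, DESeq2 or limma adjusted p at most 0.00018) and with each library left out (2.86 to 3.26). *Erbb2* was not called with limma-voom (2.09, adjusted p = 0.0522), and its leave-one-out values ranged from 1.63 to 2.57. *Erbb3* was not called with DESeq2 (0.61, adjusted p = 0.0566) or limma-voom (0.62, adjusted p = 0.0506), with leave-one-out values from 0.58 to 0.67, so that limma-voom called 1 member. When each library was left out, 1 to 3 members were higher and 0 to 1 lower. These fits assume that the lone library of a genotype varies like the other genotype. Without a WT library the prior degrees of freedom were infinite. They were 670 without KO 1 and 435 without KO 2, against 6.05 in the main fit. The p-values of these leave-one-out fits thus rest wholly or almost wholly on a spread shared by all genes.

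Of the members that were not called, *Nrg1*, *Nrg2* and *Erbb4* changed sign. With the length and GC correction the log2 fold change was 0.071 for *Nrg1* and 0.214 for *Erbb4*, and the same correction together with the replicate block gave 0.067 and 0.214. *Nrg2* was at 0.007 with library size only, a scaling that moved the median of all genes from -0.03 to 0.08. Leaving out each library gave -0.251 to 0.068 for *Nrg2* and -0.351 to 0.117 for *Erbb4*. Among the other named genes, *Tgfa* and *Plcg1* were at 0.06 and 0.062 with library size only, and leaving out each library gave -0.166 to 0.075 for *Tgfa* and -0.113 to 0.007 for *Plcg1*.

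The count of all genes called was 2363 with no filter, 883 with at least 10 counts in every library and 2987 with the length and GC correction (1999 higher and 988 lower). With DESeq2 247 were lower, with no filter 573 and with at least 10 counts in every library 52. Leaving out each library gave 951 to 4209 genes, 900 to 2578 higher and 51 to 2180 lower. Of the signalling genes, 1 was lower with DESeq2, DESeq2's size factors, the upper quartile or library size only, 2 with no filter and 7 with the length and GC correction. Leaving out each library gave 2 to 12 higher and 0 to 19 lower.

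The labels give both genotypes the replicate numbers 1 and 2 with no word on what they share, and libraries with the same number deviated together with a correlation of 0.137 across genes, so the block is given as an alternative. With the replicate block 2244 genes were called, 619 of them lower, and 3 signalling genes were lower. With the block *Egfr*, *Erbb2* and *Erbb3* were called (3.05, 2.16 and 0.62) and no other member was. The replicate block with the length and GC correction gave 3126 genes, 2056 higher and 1070 lower, with 10 signalling genes higher and 7 lower. The causes of these shifts were not tested. At this depth, changes in *Erbb2* and *Nrg4*, with under 50 counts in every WT library, were measured with the least precision.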
